A study of Mus musculus with 15 samples.

Results

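Erv3, an endogenous retroviral gene, and Piwil4, which encodes the PIWI protein MIWI2, were followed across 5 lines of G1E cells carrying different forms of GATA1. They are 2 of the 19933 genes measured with a probe set of their own. Each had 1 probe set, out of 28350 in the deposited table, and 0 further probe sets listed either gene together with another. Both genes were chosen by the size of their log2 differences from wild type on these same arrays, so their levels and differences are given as a description, without a test.

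G1E is an immature mouse erythroid line that lacks GATA1, the transcription factor that red cell and megakaryocyte precursors need to mature. The lines expressed GATA1 fused to an estrogen receptor domain with the change R216Q, R216W, D218G or D218Y in its amino-terminal zinc finger, or the unchanged GATA1-ER, called wild type (WT) here. All 15 cultures (3 biological replicates per line) were induced with 100 nM estradiol for 24 hours to activate the fusion, and uninduced cells were not analysed here. The constructs were expressed ectopically in GATA1-null cells, and how many lines were made per construct is not stated in the labels. A mutation and the line that carries it therefore cannot be told apart, and each p-value reflects only how much these cultures varied. RNA was hybridised to Affymetrix mouse arrays, and values are log2 RMA values per probe set, on which a difference of 1 is a doubling.

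Endogenous retroviruses are remnants of old germ line infections whose long terminal repeats can still act as promoters. In mouse cells they are kept silent by DNA methylation and by histone H3 lysine 9 methylation, which KRAB zinc finger proteins direct through the co-repressor TRIM28 and the methyltransferase SETDB1. In fetal male germ cells of the mouse, MIWI2 enters the nucleus with small piRNAs and guides DNA methylation to retrotransposons. GATA1 in erythroid cells activates red cell genes and shuts off progenitor genes such as Gata2 and Kit.

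The start regions of both genes are shown because the genes were high in the same lines. Each window runs from 250 bases before to 50 bases after a start site annotated by RefSeq (GRCm38.p6, minus strand), with GATA on either strand and TATAAA on the sense strand in capitals. For Erv3 the window is chr2:131859698-131859997, and for Piwil4 the windows are chr9:14740623-14740922 (outer start) and chr9:14718338-14718637 (inner start).
Erv3: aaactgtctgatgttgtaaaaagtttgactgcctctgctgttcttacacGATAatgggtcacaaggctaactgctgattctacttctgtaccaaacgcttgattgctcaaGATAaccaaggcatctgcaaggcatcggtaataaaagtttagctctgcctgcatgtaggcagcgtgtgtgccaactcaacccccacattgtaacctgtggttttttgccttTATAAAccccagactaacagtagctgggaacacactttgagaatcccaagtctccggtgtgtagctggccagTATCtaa
Piwil4 outer start: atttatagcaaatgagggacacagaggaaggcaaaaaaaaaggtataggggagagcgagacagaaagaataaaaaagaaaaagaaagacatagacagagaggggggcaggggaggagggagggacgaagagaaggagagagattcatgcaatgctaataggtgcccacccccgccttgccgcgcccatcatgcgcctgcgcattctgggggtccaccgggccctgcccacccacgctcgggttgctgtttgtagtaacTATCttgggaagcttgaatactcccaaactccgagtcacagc
Piwil4 inner start: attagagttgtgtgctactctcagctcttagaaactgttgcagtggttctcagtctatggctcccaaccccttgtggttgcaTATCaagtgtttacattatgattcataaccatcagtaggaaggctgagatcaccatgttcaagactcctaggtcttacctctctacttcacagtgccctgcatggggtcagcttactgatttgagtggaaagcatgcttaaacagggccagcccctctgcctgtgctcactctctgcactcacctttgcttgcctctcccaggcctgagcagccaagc

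A TATAAA stood at position -29 of the Erv3 window, counted from the start base as 0, a motif that 8.32% of 32841 such mouse windows hold on the sense strand. Neither Piwil4 window held it. The longer forms AGATAA or AGATAG or TGATAA or TGATAG, all containing the core GATA, were searched on both strands. The Erv3 window held AGATAA at -141. The outer Piwil4 window held AGATAG on the opposite strand at position 7, and the inner Piwil4 window held 0 of these forms. At least 1 of these forms was found in 29.8% of all windows, and the core GATA, present in all 3 windows, in 57.9%. The Erv3 window had 5 CpG dinucleotides, the outer Piwil4 window 11 and the inner Piwil4 window 0, against a median of 7 over all windows. The probe positions were not used here, so which start a probe set reports is not known.

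Erv3 was high in D218Y cells, intermediate in R216Q cells and near the wild type level in the other lines. The D218Y arrays read 10.21, 10.12 and 10.07, and the R216Q arrays 6.97, 7.18 and 6.91. The R216W arrays read 5.56, 5.33 and 5.62, and the D218G arrays 5.23, 5.18 and 5.36, against 5.48, 5.25 and 5.37 in the WT arrays. All D218Y arrays lay above all R216Q arrays, which in turn lay above every array of the other lines, while R216W, D218G and WT overlapped. Relative to WT, Erv3 was 4.76 ± 0.09 higher in D218Y on the log2 scale (limma SE, n = 3 per line), or 27.2-fold, and 1.65 ± 0.09 higher in R216Q, or 3.14-fold. The difference was 0.13 ± 0.09 in R216W and -0.11 ± 0.09 in D218G, where the arrays overlapped those of WT. The levels in the low lines lay below the median of every array (6.24 to 6.41). Whether Erv3 RNA was above the array background there was not measured, so its folds over WT may be understated.

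Piwil4 followed the same order at the high end but kept all lines apart. It read 9.49, 9.48 and 9.49 in D218Y arrays and 8.31, 8.32 and 8.15 in R216Q arrays. The R216W arrays read 6.96, 7.14 and 7.05, and the D218G arrays 6.71, 6.68 and 6.75, against 6.54, 6.52 and 6.35 in the WT arrays. No array of any line overlapped another line, although the nearest D218G and WT arrays were only 0.13 apart. Relative to WT, Piwil4 was 3.02 ± 0.06 higher in D218Y (8.09-fold) and 1.79 ± 0.06 higher in R216Q (3.46-fold). In R216W it was 0.58 ± 0.06 higher (1.5-fold) and in D218G 0.24 ± 0.06 higher.

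The working description of both genes as a graded rise therefore fits Piwil4, whose line means ran D218Y, R216Q, R216W, D218G and WT from high to low. For Erv3 the order was D218Y, R216Q, R216W, WT and D218G, and the arrays of the last 3 overlapped. The SD within a line ran from 0.07 in D218Y to 0.16 in R216W for Erv3. For Piwil4 it ran from 0.004 in D218Y to 0.11 in WT. Over all lines the residual SD of Erv3 was 0.12, larger than that of 87.4% of genes. The residual SD of Piwil4 was 0.08, larger than that of 53.6% of genes. Whether any silencing mark was lost at either gene was not measured on these arrays.

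**Figure D1:**
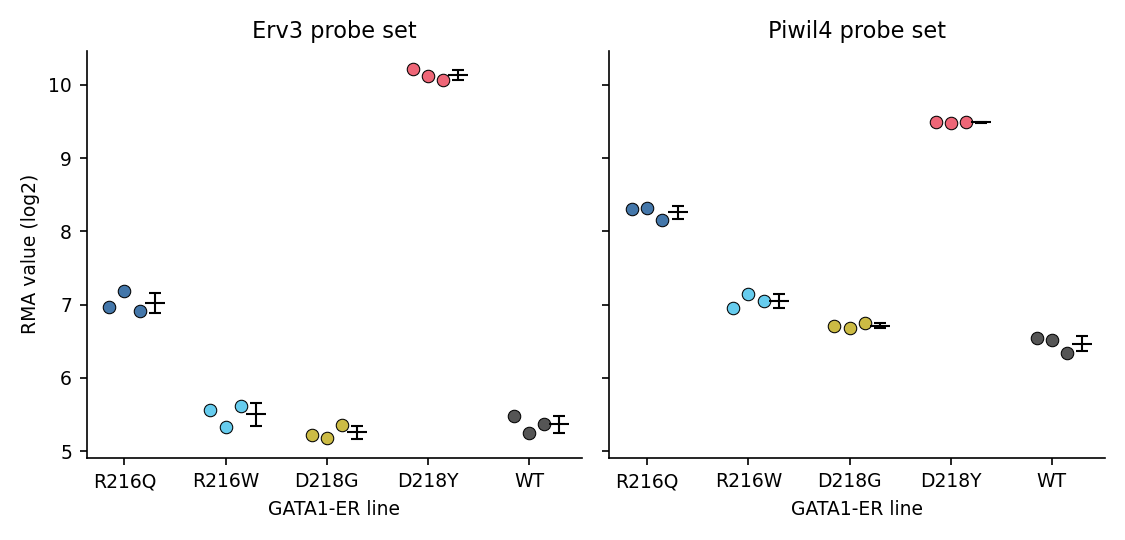
RMA values (log2) of the Erv3 and Piwil4 probe sets on every array, by line, with the mean and SD of 3 arrays beside the points. Erv3 is at 10.07 to 10.21 in D218Y and at 6.91 to 7.18 in R216Q, with R216W, D218G and WT together between 5.18 and 5.62, whereas Piwil4 separates all 5 lines.

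The 2 lines changed at the same residue differed widely in the levels of both genes. For the aspartate, where 33.0% of all genes differed between the lines (17.4% higher and 15.6% lower in D218Y), D218Y minus D218G was 4.88 ± 0.09 for Erv3 and 2.77 ± 0.06 for Piwil4. For the arginine, where 16.9% differed (8.25% higher and 8.65% lower in R216W), R216W minus R216Q was -1.52 ± 0.09 for Erv3 and -1.21 ± 0.06 for Piwil4, with R216W nearer to WT for both. Gata2, a progenitor transcription factor that GATA1 switches off, differed by 0.09 ± 0.04 between R216W and R216Q (adjusted p = 0.232 by limma). Gata2 rose in D218Y (2.85 ± 0.04), R216W (1.26 ± 0.04) and R216Q (1.17 ± 0.04) and fell by 0.29 ± 0.04 in D218G (adjusted p = 1.79e-04).

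The red cell state of the lines was also uneven. Slc4a1, which encodes the band 3 anion exchanger, fell by 5.60 ± 0.05 in D218Y, by 1.11 ± 0.05 in D218G and by 1.06 ± 0.05 in R216Q, and was at -0.12 ± 0.05 in R216W (adjusted p = 0.145). Alas2, the first enzyme of heme synthesis in red cells, fell in all 4 mutant lines, with differences of -3.18 ± 0.06 in D218Y, -0.53 ± 0.06 in D218G, -0.39 ± 0.06 in R216W and -0.31 ± 0.06 in R216Q. Of 13 erythroid markers 10 fell in R216Q, 10 in R216W and 9 in D218G. All 13 lay above the median level of all genes, where 1799, 1351 and 1430 of 9967 genes fell in those lines. Kit, the receptor for stem cell factor, rose by 2.03 ± 0.04 in D218Y, 1.45 ± 0.04 in R216Q, 0.84 ± 0.04 in R216W and 0.55 ± 0.04 in D218G. Hhex, a homeobox gene of early progenitors, rose by 3.16 ± 0.10, 1.54 ± 0.10, 1.35 ± 0.10 and 0.74 ± 0.10 in the same lines, and the means of Kit and Hhex had the order of Piwil4. Of 15 progenitor markers, 8 rose and 2 fell in D218Y, and 7 rose and 4 fell in R216Q. In R216W 8 rose and 1 fell, and in D218G 6 rose and 4 fell. The list medians were 0.78, 0.10, 0.21 and 0.07 in that order. The share called was 66.7%, 73.3%, 60% and 66.7%, against 44.4%, 21.5%, 16.6% and 18.1% of all genes. Gata1 itself, at 12.23 averaged over all arrays, fell by 0.29 ± 0.03 in D218Y and 0.21 ± 0.03 in R216Q, and was at -0.00 ± 0.03 in D218G. Gata1 was at -0.11 ± 0.03 in R216W (adjusted p = 0.022), a call lost when any array of R216W or WT was left out (adjusted p from 0.0512 to 0.0719). Whether the Gata1 probe set reports the fusion or transcript of the disrupted locus is not known.

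Across the series, 44.4% of genes differed between D218Y and WT (20.3% higher, 24.2% lower), 21.5% between R216Q and WT (11.8% higher, 9.65% lower), 16.6% between R216W and WT (9.36% higher, 7.23% lower) and 18.1% between D218G and WT (10.3% higher, 7.77% lower), at an adjusted p under 0.05. Genes below the median level drifted down in D218Y, with a median log2 difference of -0.09 and 1760 of 9966 called lower against 297 higher. How often a gene was called depended on its level. Above the median level 68.2% of genes were called in D218Y (3745 higher and 3055 lower of 9967), 40.8% in R216Q, 31.4% in R216W and 34.2% in D218G. Below it the shares were 20.6% in D218Y, 2.16% in R216Q, 1.83% in R216W and 1.91% in D218G. The array medians were 6.24 to 6.29 in D218Y, against 6.31 to 6.41 in WT. Erythroid markers, Gata1 among them, averaged 8.97 to 9.03 on D218Y arrays and 10.24 to 10.57 in the other mutant lines, against 10.93 to 10.94 in WT. In every line these means lay above the median gene level of 6.48, but whether D218Y cells kept the labelled cell type was not tested. All 13 measured erythroid markers were lower in D218Y. Of 13 mast cell markers 4 rose in D218Y, namely the tryptase gene Tpsab1 (3.06 ± 0.06), the IgE receptor chain gene Ms4a2 (2.46 ± 0.08), Hdc (1.11 ± 0.06) and Cpa3 (0.65), while Mcpt1, Mcpt2 and Mcpt4 fell. That was 53.8% of the mast cell list, against 20.6% of genes below the median level, where 12 of the 13 lay. The mean over that list was 5.35 to 5.39 on D218Y arrays and 4.90 to 4.93 on R216Q arrays, against 4.91 to 4.96 on WT arrays. The median difference from WT over the list was -0.04 in D218Y and 0.01 in R216Q. The part of mast cell genes in the D218Y values of Erv3 and Piwil4 was not tested. In R216Q Hdc rose (0.35 ± 0.06) and Mcpt2 fell, 15.4% of the list, against 2.16% of genes below the median level. In bulk RNA, more cells with a transcript and more transcript per cell cannot be told apart.

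Few other genes of the piRNA pathway were called, and 25 of the 27 measured lay below the median level, where few genes of any kind were called. Of the 27, Mybl1, which encodes the A-MYB activator of piRNA genes in mouse testis, was the 1 that rose in R216Q (0.55 ± 0.07, adjusted p = 5.69e-05). It was also the 1 that rose in R216W (0.35 ± 0.07), in D218G (0.28 ± 0.07) and in D218Y (0.40 ± 0.07, adjusted p = 3.63e-04). Its D218G call was lost without replicate 1 of WT (adjusted p = 0.0642), and the value was 0.17 without replicate 3 of D218G. The share called was 3.70% in R216Q, R216W and D218G and 14.8% in D218Y, against 2.16%, 1.83%, 1.91% and 20.6% of all genes below the median level in those lines. No pathway gene fell in R216Q, R216W or D218G. The list median was 0.00 in R216Q, -0.02 in R216W, -0.04 in D218G and -0.08 in D218Y. Over all genes the median was -0.01 in R216Q, -0.02 in R216W, -0.02 in D218G and -0.07 in D218Y.

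The sister genes of Piwil4 were flat or slightly lower. Piwil1, whose product MIWI acts late in mouse spermatogenesis, read between 5.60 and 5.84 on all 15 arrays, and its difference from WT ran from -0.09 ± 0.05 in D218Y to 0.01 ± 0.05 in R216W. Piwil2, the MILI gene that works upstream of MIWI2 in making piRNAs, fell by 0.20 ± 0.06 in D218Y (adjusted p = 0.0234). Nanos2 and Tdrd7 also fell there, by 0.19 ± 0.06 and 0.16 ± 0.06. These 3 falls were no larger than 0.10 under quantile or cyclic loess normalization and were no longer called (adjusted p from 0.141 to 0.713). The count of 1 higher and 3 lower in D218Y became 2 higher and 0 lower with cyclic loess, 2 and 0 without replicate 3 of WT, and 1 and 0 without replicate 1 of D218Y.

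No other retroelement-derived gene was called higher in D218Y, where only 297 of 9966 genes below the median level were. The list held syncytins, the restriction gene Fv1 and the Rtl and Pnma families, which descend from viral envelope or gag genes, and 20 were measured beside Erv3. In D218Y 7 of them fell and 0 rose, at a list median of -0.14. The share called was 35%, against 44.4% of all genes and 20.6% of those below the median level. Synb, a placental syncytin, fell by 0.51 ± 0.07 (adjusted p = 1.24e-05), Rtl3 by 0.36 ± 0.10 and Rtl6 by 0.33 ± 0.09, and Fv1, Rtl4, Rtl8c and Pnma5 were the others. With cyclic loess Rtl6 was at -0.21 and Pnma5 at -0.15, the second no longer called (adjusted p = 0.0819). The Rtl6 call was lost without replicate 1 of D218Y (adjusted p = 0.0555), and the Pnma5 call in 2 fits with an array left out, with -0.15 without replicate 3 of WT (adjusted p = 0.0935). Synb stood at 0.41 and 0.39 below WT after quantile and cyclic loess normalization and was still called. The count became 2 higher and 5 lower with cyclic loess, and 1 higher and 4 lower with quantile normalization. Without replicate 1 of D218Y it was 3 lower, and without replicate 3 of WT it was 4 lower. Of the 20 genes 18 lay below the median level, where values drifted down in D218Y, and 0 of those above it were called.

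In R216Q, the other line with high Erv3, Synb alone fell (0.23 ± 0.07, adjusted p = 0.0176) and 0 rose. Pnma3 was at 0.15 ± 0.05 in R216Q (adjusted p = 0.0543) and was called higher with quantile and cyclic loess normalization (0.16 and 0.17, adjusted p = 0.0221 each), without replicate 3 of WT (adjusted p = 0.0423) and without replicate 2 of D218G (adjusted p = 0.0455). The Synb call was lost without replicate 1 or 3 of WT or replicate 2 of R216Q (adjusted p from 0.0555 to 0.0915). By the same limma test 0 of 20 changed in R216W, although 2 rose after quantile or cyclic loess normalization. In D218G the Pnma3 gene rose by 0.16 ± 0.05 (adjusted p = 0.0464), a call that ended in 11 of 15 fits with an array left out (adjusted p up to 0.182). Repeat families such as IAP or LINE elements are not covered by this list.

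**Figure D2:**
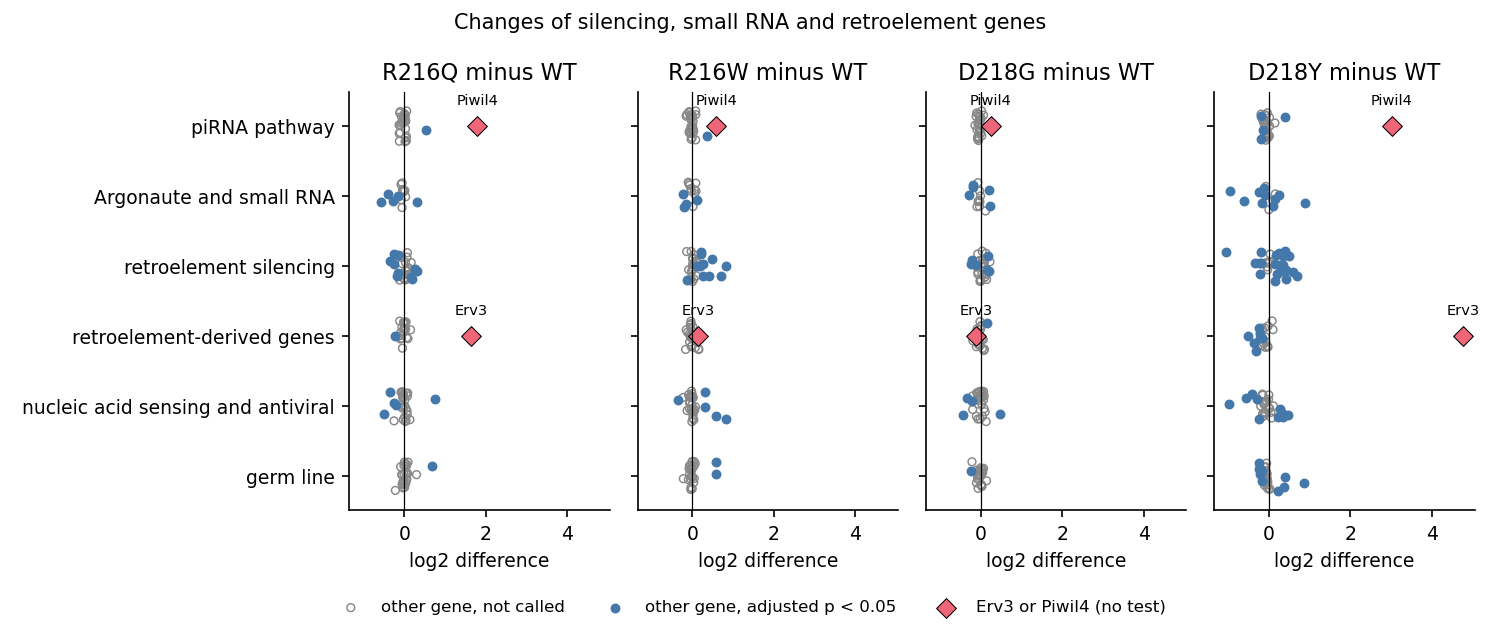
Log2 differences from WT for each gene of 6 lists in the R216Q, R216W, D218G and D218Y lines, with open circles for genes not called and filled circles for genes at an adjusted p under 0.05. Erv3 (4.76) and Piwil4 (3.02), drawn as diamonds, stand to the right of every other gene of their lists in D218Y.

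Genes that silence retroelements were mostly higher in D218Y, where Erv3 was highest. Of 29 measured, 17 rose and 6 fell (79.3%, median 0.18). All but 1 of the 29 lay above the median level, where 68.2% of all genes were called in D218Y and the median difference was -0.00. Those that rose included Daxx, a histone H3.3 chaperone (0.68 ± 0.05), Morc2a, which works with the HUSH silencing complex (0.58 ± 0.08), the H3 lysine 9 methyltransferase gene Ehmt2 (0.50 ± 0.05) and the remodeller gene Hells (0.39 ± 0.06). Trim28 rose by 0.27 and Dnmt3b by 0.41 in D218Y. The largest change in the list was a fall of Resf1, whose product binds SETDB1 at silenced retroelements. Resf1 read 9.36, 9.41 and 9.43 in D218Y arrays, against 10.47, 10.50 and 10.40 in WT arrays, a difference of -1.06 ± 0.05 (adjusted p = 1.03e-10). The groups did not overlap. Dnmt3a fell by 0.33 and Tasor, a HUSH subunit, by 0.24 ± 0.07.

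In R216Q the same list was split, with 4 genes higher and 6 lower of 29 (median 0.03). That was 34.5%, against 40.8% of all genes above the median level. Resf1 fell there too (-0.36 ± 0.05, adjusted p = 4.65e-05), whereas Setdb1 rose by 0.30 ± 0.03, the demethylase gene Kdm1a by 0.25 ± 0.03, Daxx by 0.18 and Ehmt2 by 0.16. The Daxx, Ehmt2 and Tasor calls in R216Q were lost in 3, 4 and 2 fits with an array left out (adjusted p from 0.0556 to 0.156). In R216W 10 rose and Chaf1b, a chromatin assembly gene, was the 1 that fell (37.9% against 31.4% above the median level, median 0.05). Chaf1b was at -0.14 ± 0.04, a call lost without replicate 1 of R216W (adjusted p = 0.0523) and with the compared lines alone (adjusted p = 0.0587). Those that rose were led by Setdb1 (0.82 ± 0.03, adjusted p = 4.92e-10) and Ehmt2 (0.69 ± 0.05). Setdb1 read 11.66, 11.64 and 11.61 in R216W arrays, against 10.79, 10.86 and 10.81 in WT arrays. Resf1 rose in R216W (0.48 ± 0.05). It was 0.84 ± 0.05 higher in R216W than in R216Q (adjusted p = 1.18e-08), while Erv3 was lower in R216W than in R216Q. Resf1 also fell in D218G, where Erv3 overlapped WT, and a link between the 2 genes was not tested. In D218G 3 rose and 3 fell (20.7% against 34.2% above the median level, median 0.04). They were Daxx (0.21 ± 0.05), Chaf1b (0.17 ± 0.04) and Uhrf1 (0.17) on one side and Resf1 (-0.23 ± 0.05), Tasor (-0.21 ± 0.07) and Setdb1 (-0.11 ± 0.03) on the other. The D218G calls of Setdb1 and Tasor were lost in several fits with an array left out (adjusted p up to 0.145).

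The Argonaute relatives of PIWI proteins, which work with microRNAs, stayed within 0.25 of WT in every line. Ago1 rose by 0.24 ± 0.05 in D218Y (adjusted p = 0.00153; 0.13 with quantile normalization), Ago2 was at 0.10 ± 0.04, Ago3 at -0.00 ± 0.07 and Ago4 at -0.13 ± 0.04. The Ago2 and Ago4 calls in D218Y ended with cyclic loess (adjusted p = 0.23 and 0.0857) and in fits with single arrays left out. Of the 14 genes of that list, 4 rose and 6 fell in D218Y (71.4%, median -0.04), a share near the 68.2% of all genes above the median level, where 13 of the 14 lay. Xpo5, the exporter of microRNA precursors, rose by 0.89 ± 0.04, while Mov10, a helicase that restrains retrotransposons, fell by 0.96 ± 0.04 (adjusted p = 1.13e-10) and Tnrc6b, an Argonaute partner, by 0.61 ± 0.04. Drosha was the remaining gene that rose. In R216Q Xpo5 rose (0.31 ± 0.04) and 4 fell, namely Mov10 (-0.57 ± 0.04), Tnrc6c (-0.39), Tnrc6b and Dgcr8, the last lost without replicate 2 of WT (adjusted p = 0.0561). In R216W Tnrc6a rose, Tnrc6c, Dgcr8 and Drosha fell, and Mov10 was at 0.06 ± 0.04. In D218G Xpo5 and Ago1 rose and Mov10 (-0.29 ± 0.04), Tnrc6b and Tnrc6c fell. Of the 14, 35.7% were called in R216Q, 28.6% in R216W and 35.7% in D218G. Among all genes above the median level the shares were 40.8%, 31.4% and 34.2%. The calls of Tnrc6a in R216W and Ago1 in D218G were lost in 12 fits and 1 fit with an array left out (adjusted p from 0.0513 to 0.167).

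Nucleic acid sensors and antiviral genes went both ways in the lines with high Erv3. Of 30 measured, 17 of them below the median level, 5 rose and 5 fell in D218Y (33.3%, against 44.4% of all genes; median -0.10). In the other lines 16.7% were called in R216Q, 16.7% in R216W and 13.3% in D218G, against 21.5%, 16.6% and 18.1% of all genes. Samhd1, which limits retroviral DNA synthesis, rose by 0.47 ± 0.05, as did Sting1, Irf3, Adar and Bst2 by less. Irf9 and Stat2, which carry the interferon signal, fell by 0.99 ± 0.05 and 0.41 ± 0.05, with Mavs (-0.57 ± 0.04), Irf7 and Mx2. In R216Q 1 rose, Samhd1 (0.76 ± 0.05), and 4 fell, namely Irf9 (-0.50 ± 0.05), Dhx58 (-0.34 ± 0.09), Apobec3 (-0.25 ± 0.07) and Stat2 (-0.19 ± 0.05). Dhx58 was at -0.21 without replicate 3 of WT. The Apobec3 and Stat2 calls there were lost in 2 fits each with an array left out (adjusted p from 0.0599 to 0.0772). In R216W, where Erv3 overlapped WT, 4 rose and 1 fell, with the RNA sensor gene Ddx58 at 0.57 ± 0.06, Ifih1 at 0.30 ± 0.07, Mavs at 0.31 ± 0.04 and Samhd1 at 0.82 ± 0.05, and Apobec3 the one lower (-0.36 ± 0.07). In D218G 1 rose, Apobec3 (0.47 ± 0.07), and Irf9, Mavs and Ifih1 fell. With the mean of its probe sets Apobec3 was at 0.16 in D218G. The Ifih1 call in D218G was lost in 7 fits with an array left out (adjusted p up to 0.152), with the compared lines alone (adjusted p = 0.151) and under the replicate block (adjusted p = 0.0688).

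Of 26 measured germ line genes outside the piRNA pathway, 22 lay below the median level, where few genes of any kind were called outside D218Y. In D218Y 4 rose and 5 fell (34.6%, against 44.4% of all genes and 20.6% of those below the median level; median -0.06), with Hormad2, a meiotic chromosome gene, at 0.87 ± 0.14, Zbtb16 at 0.39 ± 0.04, Sycp1, of the synaptonemal complex, at 0.37 ± 0.08 and Sycp3 at 0.22. Spo11 (-0.25), Dppa3, Stag3, Tex101 and Sohlh2 were the 5 that fell. With quantile or cyclic loess normalization, or without replicate 3 of WT, the split was 4 higher and 1 lower. Zbtb16, also used in blood cells, was the 1 that rose in R216Q (0.69 ± 0.04) and the 1 that fell in D218G (-0.24 ± 0.04). Zbtb16 (0.58 ± 0.04) and Hormad2 (0.57 ± 0.14) rose in R216W, the second lost without replicate 3 of WT (adjusted p = 0.0525).

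None of the nearest measured genes around Erv3 and Piwil4 differed from WT as far as they did in D218Y or R216Q. Many annotated genes between them were not measured: the nearest measured ones lie 8 and 2 genes from Erv3 on its 2 sides, and 5 and 1 from Piwil4. Erv3 lies on mouse chromosome 2 between Smox and Prn among the genes measured. Over its 10 nearest measured neighbours the difference of D218Y from WT ran from -0.97 to 0.76, against 4.76 for Erv3. Prnp, the prion protein gene, rose by 0.76 ± 0.05 in D218Y (adjusted p = 5.57e-09), by 0.51 ± 0.05 in R216Q and by 0.35 ± 0.05 in R216W, and was at 0.14 ± 0.05 in D218G (adjusted p = 0.071). Prn, the nearest measured gene on the same side as Prnp, was at 0.02 ± 0.06 in D218Y and 0.11 ± 0.06 in R216Q. Smox, which encodes spermine oxidase and is the nearest measured gene on the other side, fell by 0.97 ± 0.08 in D218Y, 0.69 ± 0.08 in R216Q, 0.36 ± 0.08 in R216W and 0.73 ± 0.08 in D218G. In D218Y Slc23a2 (0.36) and Rnf24 (0.24; 0.37 with cyclic loess) also rose, and Mavs, Mir103-2 and Pank2 fell. In R216Q no further neighbour was called, in R216W Mavs rose, and in D218G Slc23a2 rose and Mavs, Mir103-2 and Pank2 fell. Of the 10 neighbours of Erv3, 7 were called in D218Y, 2 in R216Q, 3 in R216W and 5 in D218G. The shares of all genes called were 44.4%, 21.5%, 16.6% and 18.1% in that order. The Rnf24 call in D218Y and the Slc23a2 call in D218G were lost in 3 and 5 fits with an array left out (adjusted p from 0.0501 to 0.12).

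Piwil4 lies on mouse chromosome 9, and in D218Y and R216Q its neighbours changed less than those of Erv3. The differences of the Piwil4 neighbours from WT lay between -0.15 and 0.19 in D218Y and between -0.04 and 0.16 in R216Q, against 3.02 and 1.79 for Piwil4. In D218Y Endod1 was at -0.11 but at -0.24 with quantile normalization (adjusted p = 8.3e-04). In D218Y the DNA repair gene Mre11a (0.19 ± 0.04) and the splicing gene Cwc15 (0.15 ± 0.04) rose and the histone demethylase gene Kdm4d was at -0.15 ± 0.05 (adjusted p = 0.0271; adjusted p = 0.746 with cyclic loess). In R216Q Mre11a and Cwc15 rose, the second lost in 4 fits with a WT or R216Q array left out (adjusted p up to 0.0913). Of the 10 neighbours of Piwil4, 3 were called in D218Y, 2 in R216Q, 2 in R216W and 2 in D218G. The shares of all genes called were 44.4%, 21.5%, 16.6% and 18.1% in that order. Endod1 was the neighbour that moved furthest, at -0.82 ± 0.07 in R216W (adjusted p = 4.52e-07) and 0.41 ± 0.07 in D218G, lines in which Piwil4 was 0.58 and 0.24 above WT. Fut4, which lies nearby on one side, was at -0.04 ± 0.08 in D218Y, and Amotl1, on the other side, at 0.18 ± 0.07 (adjusted p = 0.0536). Amotl1 was called higher with quantile (0.23, adjusted p = 0.00319) and cyclic loess normalization (0.28, adjusted p = 4.04e-04) and without replicate 3 of WT (0.28, adjusted p = 0.00234).

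**Figure D3:**
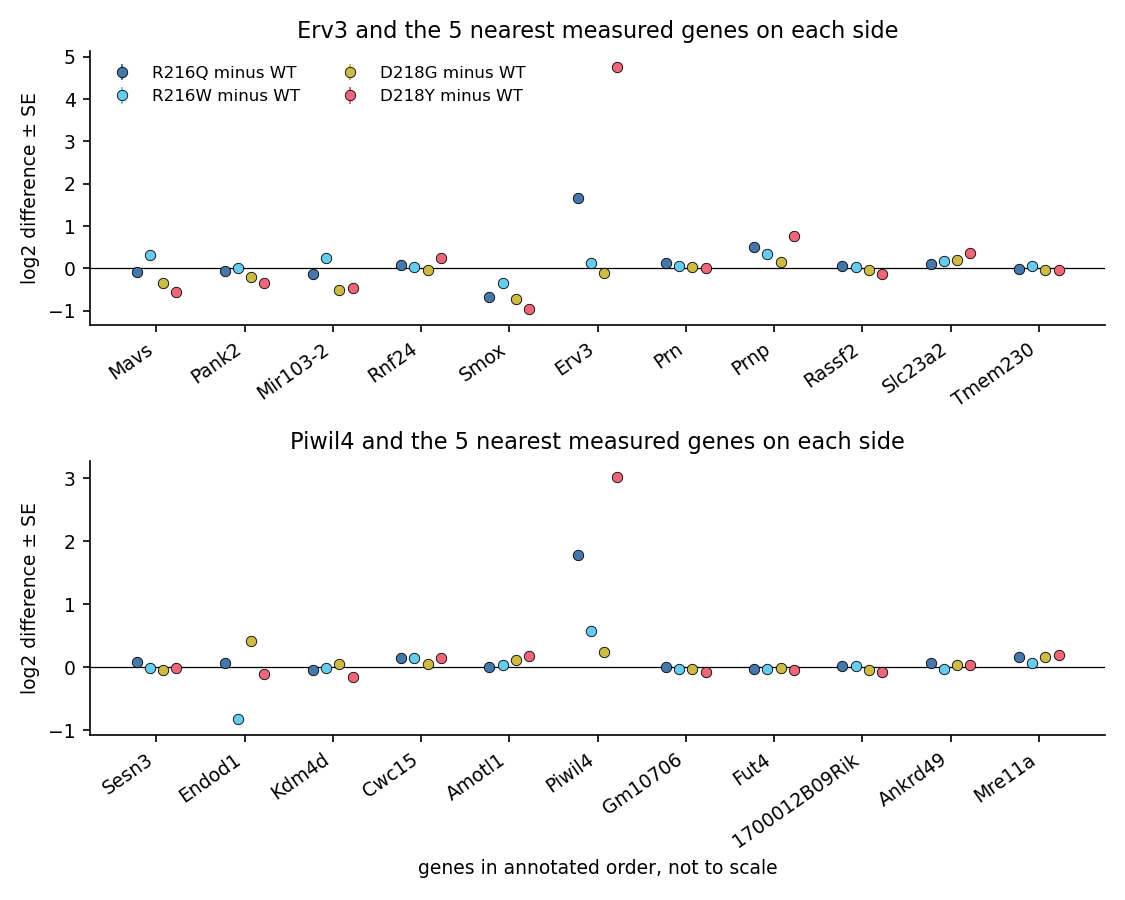
Log2 differences from WT (± limma SE, mostly smaller than the points) for Erv3, Piwil4 and the 5 nearest measured genes on each side, in annotated order and not to scale. In D218Y the neighbours of Erv3 lie between -0.97 and 0.76 and those of Piwil4 between -0.15 and 0.19, against 4.76 for Erv3 and 3.02 for Piwil4.

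Genes with the most similar course were sought by the root mean square difference, over all 15 arrays, of the log2 value minus the gene's WT mean. The arrays share 5 lines, so these are descriptions of 5 levels. For Erv3 the nearest gene was Ehf, an Ets family transcription factor, at 0.72, followed by Npl, an enzyme of sialic acid breakdown, at 0.80, Piwil4 at 0.83, the amino acid transporter gene Slc7a6 at 0.89 and the desmosome gene Pkp2 at 0.93. All of these fell short of Erv3 in D218Y (3.02 to 3.58 above WT, against 4.76) and lay above it in R216W and D218G. Npl, for example, was 1.08 above WT in D218G.

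Piwil4 had closer company than Erv3 by this measure, which was not scaled for the larger rise of Erv3 in D218Y. The nearest genes of Piwil4 were Kcne3, a potassium channel subunit, at 0.36, Slc7a6 and the immediate early gene Egr1 at 0.37 each, Pkp2 at 0.40 and Ehf at 0.42. Kcne3 was 2.38 above WT in D218Y, 1.53 in R216Q, 0.44 in R216W and 0.59 in D218G, and Egr1 was 2.37, 1.38, 0.35 and 0.33 above WT in the same lines. Seen from Piwil4, Erv3 ranked only 93rd of 18258 genes, at 0.83, while Gata2 ranked 9th at 0.49. From Erv3, Gata2 ranked 10th at 1.02.

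**Figure D4:**
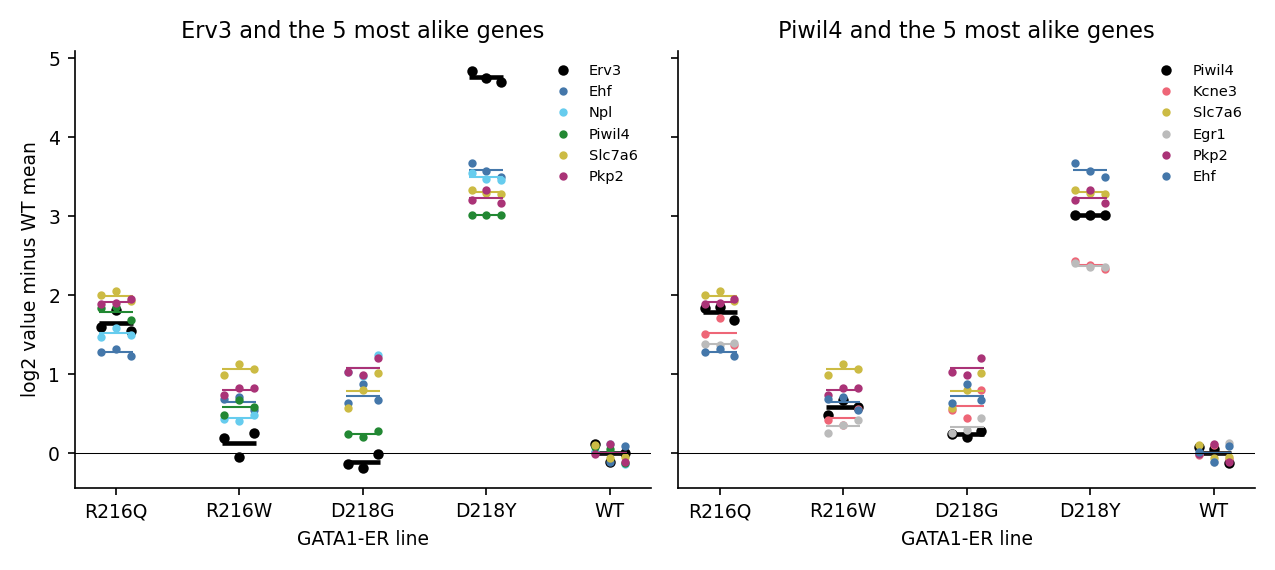
Log2 values minus the WT mean of each gene on every array (points) and the line means (bars) for Erv3, Piwil4 and the 5 genes most alike each. In D218Y Erv3 stands above its 5 companions, while Piwil4 lies among its own, between Egr1 (2.37) and Ehf (3.58).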

How the data were processed

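Total RNA of 15 G1E cultures, 3 per line, was measured on Affymetrix mouse arrays. Groups and replicate numbers came from the sample titles. Partek 6.6 and RMA are the tools that the authors list, per the submitters' processing notes, and the deposited log2 values (2.89 to 13.58) were used unchanged, with settings not given in the sources used here. Arrays carry no counts, so their number limits the precision. Of 28350 probe sets, 21780 had 1 gene symbol in the platform annotation, 1618 several and 4952 none listed. The probe set with the highest mean was kept per gene (996 genes had several), which gave 19933 genes. Of the identifiers 21689 matched RefSeq and 0 symbols changed. limma 3.58.1 in R 4.3.3 fitted 1 mean per line over all arrays, with eBayes, two-sided tests and Benjamini-Hochberg adjustment over all genes, and called genes at an adjusted p under 0.05. "Rose" and "fell" refer to such calls. The fit was first tested on simulated data.

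Erv3, Piwil4 and the 13 gene lists were chosen with earlier results of these data known. Erv3 and Piwil4 were left out of list counts, and no set test was run. Named genes were Erv3, Piwil4, Gata1, Gata2, Kit, Hhex, Slc4a1, Alas2, the 5 nearest measured genes on each side, the 5 most alike genes, up to 4 called members per list and contrast, and all members of counts of 5 or fewer. Piwil1, Trim28, Dnmt3a, Dnmt3b, Uhrf1, Cpa3, the falling mast cell markers and the Argonaute genes were also named after their values were seen. Same-numbered arrays did not deviate together (3 of 30 pairs correlated above 0.1, median r = -0.02), so replicate numbers were not taken as pairs. Alternatives were 2 further normalizations (cyclic loess or quantile), only the genes brighter than the median, the compared lines alone, eBayes with trend and robust, the replicate number as a block, the mean of probe sets, and each array left out.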

Additional observations from a re-analysis of the deposited data

Results flagged for a closer look

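Neither Erv3 nor Piwil4 lay above every WT array in one mutant line and below every WT array in another. The genes below did, among the neighbours and list genes named, and apart from Gata2 the difference between the 2 lines was not tested for them. Gata2 was 2.85 above WT in D218Y and 0.29 below it in D218G, a distance of 3.14 ± 0.04 (adjusted p = 1.73e-15 by limma). Resf1 was 0.48 above WT in R216W and 1.06 below it in D218Y, a distance of 1.54. Endod1, near Piwil4, stood 1.23 higher in D218G than in R216W, and Mavs, near Erv3, 0.88 higher in R216W than in D218Y. Setdb1 stood 0.92 higher in R216W than in D218G, Zbtb16 0.92 higher in R216Q than in D218G, and Apobec3 0.83 higher in D218G than in R216W. With the mean of its probe sets Apobec3 was 0.16 above WT in D218G and at -0.27 in R216W. Smaller distances were seen for Chaf1b (0.32, D218G above R216Q), Drosha (0.31, D218Y above R216W), Tnrc6a (0.21, R216W above D218Y) and Ago2 (0.20, D218Y above R216W).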

How the results depend on the processing

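The differences of Erv3 and Piwil4 from WT moved by less than 1 SD between replicates under every alternative run, except Erv3 in D218Y with cyclic loess normalization (4.86 against 4.76), the cause of which was not tested. With each array left out in turn, Erv3 in D218Y ran from 4.71 to 4.82. Replicate 3 of D218G had a lower array median than the others of its line, and without it the D218G difference was -0.16 for Erv3 and 0.22 for Piwil4. The count of genes called in D218G was 2106 with the compared lines alone, against 3601.

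With the replicate block 4020 genes were called in R216Q, 2998 in R216W, 3297 in D218G and 8305 in D218Y. Under the block the germ line count in R216Q was 2 and the retroelement-derived count in D218G was 0. With quantile or cyclic loess normalization the retroelement-derived counts were 2 in R216Q and 2 in R216W, and the germ line count in D218Y was 5. The piRNA count in D218Y was 2 with cyclic loess. With genes above the median level alone the retroelement-derived counts were 0 in R216Q, D218G and D218Y. The germ line count in D218Y was 2 there, and the piRNA count in D218Y was 2. Members of those lists below the median level are left out of that setting. The silencing count in D218G was 11 there, for a cause that was not tested. With the compared lines alone the sensing count was 3 in R216Q, the counts of Piwil4 neighbours were 1 in R216Q, 1 in R216W and 1 in D218G, and in D218G the piRNA count was 0, the silencing count 3 and the retroelement-derived count 0, where fewer samples enter. With trend and robust the silencing count was 16 in R216Q and 10 in D218G.

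With an array left out, retroelement-derived counts ran from 0 to 2 in R216Q, 0 to 1 in R216W, 0 to 1 in D218G and 3 to 9 in D218Y. Germ line counts ran from 1 to 2 in R216Q, 1 to 2 in R216W and 5 to 9 in D218Y. The piRNA counts ran from 0 to 1 in D218G and 1 to 6 in D218Y. Counts of Piwil4 neighbours ran from 1 to 3 in R216Q and 1 to 2 in R216W. Among the 68 single genes recomputed, no called direction turned under the alternatives run; other named genes were not recomputed. The other causes of these moves were not tested. Low signal limits the dim genes, Erv3 in R216W, D218G and WT among them.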

Other observations

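Of 471 genes at least 2-fold higher in D218Y than in WT, 49 were also at least 2-fold higher in R216Q. Of these 49, Erv3 was the 1 gene that lay within 0.25 of WT on the log2 scale in both R216W and D218G. A further limit, at least 2-fold lower in R216W than in R216Q, left 8 of the 49. They were Erv3, Piwil4, the lysosomal protease gene Ctsl, Egr1, Kcne3, Npl, Pkp2 and the presenilin gene Psen2. These limits were chosen after the values were seen, and the counts are a description without a test. Of 19933 genes, 131 had the order of line means of Erv3 and 481 that of Piwil4, each count including the gene itself.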
